A study of Mus musculus with 2 samples.

Results

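The TAM receptors *Axl*, *Mertk* and *Tyro3* and their ligands *Gas6* and *Pros1* are described here in CD45+ cells sorted from mouse brain. The 5 genes were taken by symbol from the 32285 genes of the deposited tables, and all 5 are present there. The cells came from 4 control mice (Arpc4 fl/fl, without Cre) and 4 *Arpc4*Δ*Cx3cr1* mice (Tg(Cx3cr1-Cre) Arpc4 fl/fl, called knockout below), all 12 weeks old. Both groups carry the floxed *Arpc4* alleles, and only the knockout mice carry the Cre transgene, so the transgene itself and the loss of *Arpc4* cannot be told apart. The transgene is driven by *Cx3cr1*, which microglia, the CNS-associated macrophages (CAMs) of the brain borders and blood monocytes express. The cells of each mouse were tagged, pooled and made into 1 library that reads transcripts at their 3′ end, and counts are of unique molecular identifiers (UMIs), each of which stands for 1 captured RNA molecule. CPM below are UMIs of a gene per 1000000 gene UMIs.

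TAM receptors are tyrosine kinases of the cell surface. Gas6 and protein S, the product of *Pros1*, bind phosphatidylserine on dying cells with one end and the receptors with the other, and so let macrophages take up dead cells and membrane. Gas6 activates all members of the receptor family, whereas protein S acts on Tyro3 and Mertk. Both ligands need vitamin K-dependent carboxylation to bind phosphatidylserine. Signals through Axl and Mertk also damp inflammatory and interferon responses, and Axl and Mertk can be shed from the surface by ADAM proteases. In the brain, Mertk is known as a receptor of resting microglia and Axl as a receptor of reactive microglia.

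The members lie apart in the genome. In mm10, *Axl* (ENSMUSG00000002602) lies on the minus strand at chr7:25757273-25788705 and *Mertk* (ENSMUSG00000014361) on the plus strand at chr2:128698956-128802894. *Tyro3* (ENSMUSG00000027298) lies on the plus strand at chr2:119797733-119818104, *Gas6* (ENSMUSG00000031451) on the minus strand at chr8:13465374-13494490 and *Pros1* (ENSMUSG00000022912) on the plus strand at chr16:62854307-62929346. In GENCODE vM21 no other gene overlaps *Axl*, *Tyro3* or *Pros1*. *Gas6* is overlapped by *Tmem255b* on the other strand, and *Mertk* by *Gm23172* on its own strand and *Gm14011* on the other.

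The 250 bases before the start site of the 4 members that were detected are shown because *Axl* and the ligands moved in opposite directions in knockout microglia (described below). They are the RefSeq sequences of GRCm38.p6, read 5′ to 3′ on the strand of the gene, with capitals for the motif matches named after them, which may overlap each other:
Axl, chr7:25788734-25788983, minus strand: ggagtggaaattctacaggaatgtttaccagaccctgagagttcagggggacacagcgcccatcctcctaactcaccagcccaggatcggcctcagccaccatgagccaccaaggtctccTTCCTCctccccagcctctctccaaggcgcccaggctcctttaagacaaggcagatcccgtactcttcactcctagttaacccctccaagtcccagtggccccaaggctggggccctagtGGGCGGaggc
Mertk, chr2:128698665-128698914, plus strand: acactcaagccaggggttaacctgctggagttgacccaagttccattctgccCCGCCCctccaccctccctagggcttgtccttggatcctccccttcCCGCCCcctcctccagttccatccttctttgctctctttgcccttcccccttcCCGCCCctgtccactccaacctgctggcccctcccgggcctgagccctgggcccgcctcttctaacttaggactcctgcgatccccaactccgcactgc
Gas6, chr8:13494536-13494785, minus strand: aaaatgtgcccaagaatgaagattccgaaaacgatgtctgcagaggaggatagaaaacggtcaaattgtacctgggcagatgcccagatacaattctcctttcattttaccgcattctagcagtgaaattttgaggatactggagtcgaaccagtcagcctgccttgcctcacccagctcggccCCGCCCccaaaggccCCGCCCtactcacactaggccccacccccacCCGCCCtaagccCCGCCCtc
Pros1, chr16:62854057-62854306, plus strand: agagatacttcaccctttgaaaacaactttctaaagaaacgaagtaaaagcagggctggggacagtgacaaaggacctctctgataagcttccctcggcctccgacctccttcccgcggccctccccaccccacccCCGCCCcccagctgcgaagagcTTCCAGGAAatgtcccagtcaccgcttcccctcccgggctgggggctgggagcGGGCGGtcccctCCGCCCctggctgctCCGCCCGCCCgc

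Motifs were searched on both strands. The GC box GGGCGG occurs 1 time in the *Axl* window, 3 times in that of *Mertk*, 4 times in that of *Gas6* and 5 times in that of *Pros1*, and in 32.7% of the 32817 promoter windows of this length. The PU.1 core GAGGAA, which 23.3% of the windows hold, occurs 1 time in the *Axl* window, on the other strand. The interferon-gamma activated site TTCNNNGAA, held by 7.01% of the windows, occurs 1 time in the *Pros1* window. The interferon-stimulated response element (ISRE, in 2.97% of the windows), the AP-1 site TGANTCA (6.75%) and the DR4 repeat of nuclear receptors (0.0152%) are in none of these 4 windows.

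Clusters were formed without the 5 members and *Arpc4* and named from marker genes. They gave 7780 microglia of control and 9233 of knockout mice, and 285 and 124 CAMs. Microglia of control mice held 22207 to 22565 CPM summed over 10 microglia markers, those of knockout mice 8760 to 12584. The sums of UMIs per mouse ran from 4190845 to 11696847 for microglia and from 93546 to 436671 for CAMs, so values in CAMs are less precise. *Arpc4* in microglia was 236, 216, 225 and 222 CPM in control mice 1 to 4 and 153, 148, 143 and 138 CPM in knockout mice 1 to 4. Its log2 fold change was −0.63 (SE 0.054, edgeR adjusted p = 4.95e-06), by the quasi-likelihood test with p-values adjusted after Benjamini and Hochberg. In CAMs it was 222 CPM ± 38.0 in control and 267 CPM ± 32.9 in knockout mice (SD, n = 4 each). The log2 fold change was 0.27 (SE 0.22, edgeR adjusted p = 0.703), so no fall of the targeted transcript was seen in CAMs. These 3′ counts do not measure the deletion itself. Knockout mouse 1 stood apart, since it gave 97.6% of the 1516 cells of 1 microglia subcluster and had 1444 CPM of *Xist* against 3.45 to 13.8 CPM in the other 7 mice. The study's methods give the control mice as male and the knockout mice as male except for 1 female. The study left that female out of its own analysis, and its methods do not give her tag. The high *Xist* marks knockout mouse 1 as the female. All 4 knockout mice are used here, and values without knockout mouse 1 are given beside the results.

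The first comparison asks how the members differ between microglia of knockout and control mice. *Axl* rose 13.5-fold in knockout microglia, the ligands *Gas6* and *Pros1* fell, *Mertk* did not pass the test, and *Tyro3* was at or near 0 in both genotypes. Of all 12727 genes tested, 22.8% were called higher and 23.1% lower in knockout microglia at an adjusted p under 0.05, so a call on its own is common in this comparison. The size of the *Axl* difference is given here beside its call for that reason. Genotypes without overlap are common as well, seen for 5633 of the 12727 genes. CPM in the tests use library totals corrected by the TMM factor.

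*Axl* was 21.9, 15.5, 18.2 and 22.2 CPM in the microglia of control mice 1 to 4 and 241, 254, 252 and 294 CPM in those of knockout mice 1 to 4. Every knockout mouse lay above every control mouse. The log2 fold change was 3.76 (SE 0.11, 95% interval 3.48 to 4.04, edgeR adjusted p = 1.08e-08). Leaving out any 1 mouse kept it between 3.65 and 3.84 (3.803 without knockout mouse 1), and leaving out cells over 3 times the median UMIs of their mouse gave 4.22, with the control level, on library totals, at 14.1 CPM ± 2.57 in place of 20.2 CPM ± 3.31. The control level is low, and free RNA was estimated to give 2.83 to 3.38 CPM of *Axl* per mouse, from the level in empty droplets and the share of free RNA.

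*Mertk*, the receptor of resting microglia, was 1098, 1084, 1113 and 1091 CPM in the control mice and 900, 1029, 1177 and 1107 CPM in the knockout mice. The genotypes overlapped, and the knockout mice spread more widely, with knockout mouse 1 lowest. The log2 fold change was −0.058 (SE 0.076, 95% interval −0.24 to 0.13, edgeR adjusted p = 0.561). Without knockout mouse 1 it was 0.015, and with library totals alone as scaling, which shift the median of all genes to −0.11, it was −0.16.

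*Tyro3* gave 0 UMIs among the 32278082 of control microglia and 1 UMI among the 44052174 of knockout microglia. A count of 0 allows up to 0.0929 CPM in control microglia. It was too low to enter the test, and its 1 microglial UMI lay in knockout mouse 2.

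*Gas6*, the ligand of the whole receptor family, was 123, 111, 108 and 107 CPM in the control mice and 75.2, 45.9, 33.4 and 41.0 CPM in the knockout mice. The genotypes did not overlap, and knockout mouse 1 lay closest to the controls. The log2 fold change was −1.20 (SE 0.20, 95% interval −1.69 to −0.72, edgeR adjusted p = 0.000545), and −1.48 without knockout mouse 1.

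*Pros1*, which encodes protein S, was 338, 350, 333 and 319 CPM in the control mice and 251, 274, 260 and 262 CPM in the knockout mice. Again the genotypes did not overlap. The fall was smaller than that of *Gas6*, with a log2 fold change of −0.36 (SE 0.052, 95% interval −0.48 to −0.23, edgeR adjusted p = 0.00022), and without any 1 mouse it lay between −0.38 and −0.33, the latter without knockout mouse 1.

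**Figure D1:**
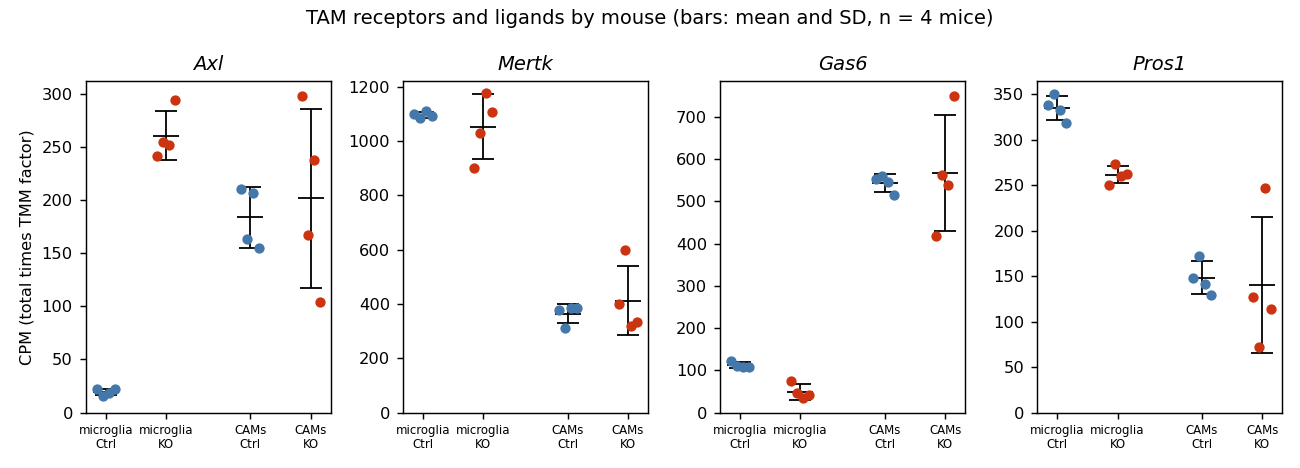
Levels of *Axl*, *Mertk*, *Gas6* and *Pros1* (CPM on TMM-corrected totals, each class scaled in its own fit) in microglia and CAMs, each point 1 mouse, with the mean and SD of 4 mice. In microglia the knockout mice lie above the control mice for *Axl* (241 to 294 against 15.5 to 22.2 CPM) and below them for *Gas6* and *Pros1*, whereas in CAMs the genotypes overlap for each of these genes.

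The next comparison asks how the members differ between CAMs and microglia of control mice. *Axl* and *Gas6* were higher in CAMs, *Mertk* and *Pros1* were higher in microglia, and all 4 differences passed the test, as did 30.8% of the 10574 genes tested. *Axl* was 173 CPM ± 27.4 in CAMs and 18.5 CPM ± 3.01 in microglia (SD, n = 4 mice each), a log2 difference of 3.26 (SE 0.17, edgeR adjusted p = 3.82e-17). *Gas6* was 514 CPM ± 23.6 in CAMs and 107 CPM ± 6.69 in microglia, a log2 difference of 2.27 (SE 0.084, edgeR adjusted p = 4.43e-21). *Mertk* was 344 CPM ± 31.3 in CAMs and 1043 CPM ± 12.1 in microglia, a log2 difference of −1.59 (SE 0.080, edgeR adjusted p = 1.6e-17). *Pros1* was 140 CPM ± 18.3 in CAMs and 319 CPM ± 12.9 in microglia, a log2 difference of −1.20 (SE 0.11, edgeR adjusted p = 8.23e-11). The control CAMs of every mouse lay apart from the microglia of every mouse for each of these 4 genes, as for 3684 of the 10574 genes tested. No *Tyro3* UMI was counted in CAMs of either genotype, which allows up to 2.54 CPM in control and 6.19 CPM in knockout CAMs.

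In CAMs, none of the members passed the test between genotypes. In this comparison 0.919% of 3372 genes were called either way, 31 genes in all. *Axl* in CAMs was 210, 163, 207 and 155 CPM in control mice 1 to 4 and 298, 167, 238 and 104 CPM in knockout mice 1 to 4. The knockout mice spread over and around the control range, and the log2 fold change was 0.16 (SE 0.26, 95% interval −0.48 to 0.80, edgeR adjusted p = 0.871). The upper end of this interval lies below the log2 fold change of 3.76 in microglia. Without knockout mouse 1 the value in CAMs was −0.11, with an edgeR adjusted p of 0.965.

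*Gas6* in CAMs was 553, 561, 547 and 514 CPM in the control mice and 417, 562, 540 and 749 CPM in the knockout mice. Its log2 fold change was 0.054 (SE 0.21, 95% interval −0.45 to 0.56, edgeR adjusted p = 0.951). *Mertk* in CAMs was 379, 312, 384 and 385 CPM in the control and 400, 598, 320 and 333 CPM in the knockout mice, with a log2 fold change of 0.16 (95% interval −0.38 to 0.70, edgeR adjusted p = 0.845). The highest of these, in knockout mouse 2, came from the smallest CAM sample, of 22 cells. *Pros1* in CAMs was 149, 173, 142 and 130 CPM in the control and 128, 71.7, 247 and 114 CPM in the knockout mice, with a log2 fold change of −0.031 (95% interval −0.73 to 0.66, edgeR adjusted p = 0.979). The fall of *Pros1* seen in microglia, −0.36, lies inside its interval in CAMs, so a change of that size in CAMs was not detectable at this depth.

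The genotype effect itself differed between the macrophage classes for *Axl* and *Gas6*. Of 11168 genes, 5.02% had an effect in CAMs that differed from that in microglia. For *Axl* the effect in CAMs minus that in microglia was −3.71 on the log2 scale (SE 0.27, edgeR adjusted p = 7.66e-09). For *Gas6* it was 1.12 (SE 0.27, edgeR adjusted p = 0.016), a call that was lost without control mouse 1 (adjusted p = 0.0569) or knockout mouse 4 (adjusted p = 0.0803), with a range of 1.8e-06 to 0.0803 over all alternatives. Without knockout mouse 1 it was 1.52. For *Mertk* it was 0.081 (95% interval −0.38 to 0.54, edgeR adjusted p = 0.905) and for *Pros1* 0.21 (95% interval −0.37 to 0.78, edgeR adjusted p = 0.776), neither past the threshold. At a coarser clustering (resolution 0.4) the cluster of CAMs took in 1422 knockout cells in place of 124, and 326 control cells in place of 285. Knockout microglia numbered 7939 there in place of 9233. The 10 leading genes of the wider CAM cluster included *Ms4a7*, which led a microglia cluster at the finer clustering. In that wider class *Axl* had a log2 fold change of 0.65 (edgeR adjusted p = 0.00636) and *Gas6* of −2.27 (edgeR adjusted p = 2.11e-08). Over all alternatives the adjusted p in CAMs (edgeR or DESeq2) ran from 0.00636 to 0.97505 for *Axl* and from 2.11e-08 to 0.997 for *Gas6*. The values for CAMs above are those of the cluster of the finer clustering.

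**Figure D2:**
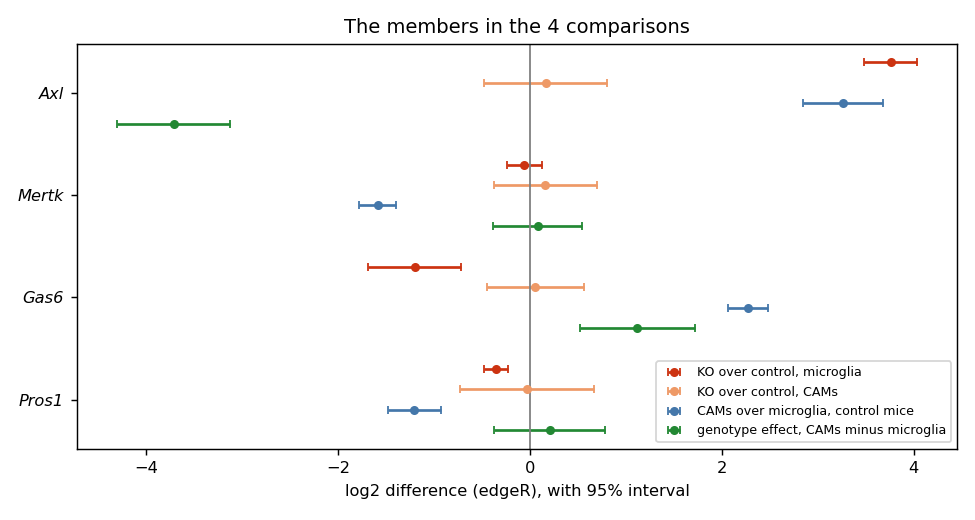
Log2 differences (x axis, with 95% intervals from the SE of edgeR) of *Axl*, *Mertk*, *Gas6* and *Pros1* (rows) between genotypes in microglia and in CAMs, between CAMs and microglia of control mice, and in the genotype effect in CAMs minus that in microglia. *Axl* lies at 3.76 in microglia and 0.16 in CAMs, and the interval of *Mertk* spans 0 in both.

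Across the cell classes of the sort, *Axl* by total-scaled CPM was highest in CAMs among control cells. It was 134 to 178 CPM in control CAMs, 42.01 to 73.2 CPM in control monocytes (4 mice each) and 16.1 to 23.2 CPM in control microglia, and these ranges do not overlap. Control T cells, with 0 to 93.9 CPM, and proliferating cells, with 0 to 60.4 CPM over 3 mice, overlapped both microglia and monocytes. Control B cells of 2 mice had 0 UMIs of *Axl* and the granulocytes of 1 control mouse 6.06 CPM. In knockout mice the order was another, with 232 to 281 CPM in microglia, 99.5 to 290 CPM in proliferating cells, 101 to 208 CPM in T cells, 92.5 to 234 CPM in CAMs and 0 to 152 CPM in monocytes. Microglia lay above T cells and monocytes in these mice, and every pair of neighbours in this order overlapped.

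T cells and proliferating cells also held transcripts of the microglia markers. Summed over the 10 microglia markers, control T cells had 7126 to 8237 CPM and knockout T cells 2980 to 4960 CPM, and proliferating cells 3003 to 10263 and 5248 to 10856 CPM. The cluster named T cells was also high in natural killer markers. Over the median of the other clusters these had a median log2 difference of 3.97, against 5.49 for T cell markers. In the cluster named monocytes this value was 2.02 for dendritic cell markers, against 3.55 for monocyte markers. In the cluster named proliferating cells it was 2.96 for monocyte markers, against 5.08 for proliferation markers. The *Axl* and *Mertk* UMIs of T cells and proliferating cells thus stand beside UMIs of microglia markers, and their source was not tested. The same holds for the 431 to 563 CPM of *Mertk* in control T cells. The granulocytes of 1 control mouse, with 1618 CPM of microglia markers, had 139 CPM of *Mertk*.

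*Mertk* was highest in microglia in every mouse (1124 to 1149 CPM by total in control and 864 to 1122 CPM in knockout mice). In control mice T cells followed, with the 431 to 563 CPM named above, each above the 271 to 334 CPM of CAMs. Control proliferating cells, with 90.7 to 423 CPM, overlapped CAMs. In knockout mice the ranges of proliferating cells (308 to 669 CPM), CAMs (262 to 534 CPM) and T cells (227 to 465 CPM) overlapped each other. Control monocytes had 49.0 to 229 CPM. *Gas6* was highest in CAMs (447 to 487 CPM in control and 328 to 666 CPM in knockout mice), followed by control microglia with 112 to 126 CPM, a range that control T cells, with 13.1 to 179 CPM, overlapped. Monocytes of either genotype stayed between 0 and 8.46 CPM of *Gas6*. *Pros1* was highest in microglia, at 334 to 364 CPM in control and 241 to 268 CPM in knockout mice. Control CAMs had 113 to 150 CPM of *Pros1*, control T cells 77.5 to 117 CPM, which overlap the CAMs, and control monocytes 52.6 to 74.99 CPM. *Tyro3* was counted with 1 UMI each in knockout T cells, knockout B cells and knockout microglia and with 0 in every other class and genotype.

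**Figure D3:**
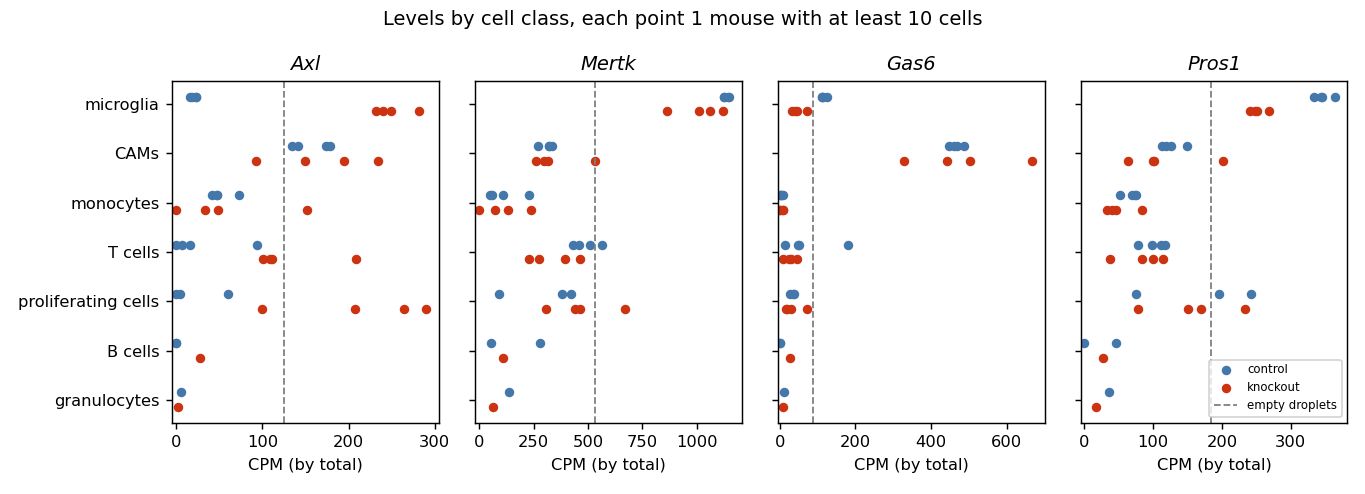
Levels of 4 members (CPM by total, x axis) in 7 cell classes (rows), each point 1 mouse with at least 10 cells of the class, with the level in empty droplets as a dashed line. *Axl* of knockout microglia (232 to 281 CPM) lies above and that of control microglia (16.1 to 23.2 CPM) below the 125 CPM of empty droplets, and *Gas6* is highest in CAMs.

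Barcodes of the pool with at most 100 gene UMIs served as empty droplets. They held 125 CPM of *Axl*, 531 CPM of *Mertk*, 88.6 CPM of *Gas6* and 184 CPM of *Pros1*, and 0 UMIs of *Tyro3* among 6848195. Free RNA made up an estimated 2.27 to 2.71% of the microglial UMIs of a mouse, which rests on *S100a8* and *S100a9*, 2 granulocyte genes. By 9 genes of other brain cells the value was 77.8 to 132%, as microglia held these near their level in empty droplets. Why the values differ was not tested. By *S100a8* and *S100a9*, free RNA comes to 12.03 to 14.4 CPM of *Mertk*, 2.01 to 2.402 CPM of *Gas6* and 4.17 to 4.98 CPM of *Pros1*. Each is a small part of the level in microglia. Subtracting free RNA by this estimate left the log2 fold change of *Axl* at 3.99 and that of *Gas6* at −1.24.

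At the level of single cells, the share of microglia with a UMI was compared after each cell was thinned to 2000 UMIs, which left out 288 control and 328 knockout cells. A UMI of *Axl* was found in 1.86 to 3.07% of the microglia of control mice (median 1.95%) and in 36.1 to 41.3% of those of knockout mice (median 36.3%). T cells hold transcripts of microglia markers (above) and give no clean background. In T cells the share was 0 to 10% in control and 9.09 to 25.9% in knockout mice. In B cells it was 0 of 24 control cells, which allows a share of up to 12.5%, and 1 of 32 knockout cells. The share of microglia in every knockout mouse lay above that of T cells in every mouse, whereas the control microglia lay within the range of control T cells. The summed level in control microglia, 16.1 to 23.2 CPM by total, lay above the 2.83 to 3.38 CPM estimated for free RNA from *S100a8* and *S100a9*. Median depths before thinning were 3833 and 4283 UMIs in control and knockout microglia and 4979 and 4050 UMIs in T cells. Without thinning, 4.66 to 5.80% of control and 56.7 to 65.7% of knockout microglia held a UMI of *Axl*.

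A UMI of *Mertk* was found in 81.5 to 82.1% of control and 69.0 to 77.0% of knockout microglia, which do not overlap. The summed level did not pass the test, which uses TMM factors, whereas the thinned cells share a total. By total the sums did not overlap either, at 1123.88 to 1148.75 CPM in control and 864 to 1121.97 CPM in knockout mice. T cells had 22.2 to 43.2% and 12.5 to 25%. *Gas6* was found in 19.7 to 23.5% of control and 6.14 to 11.998% of knockout microglia, against 3.70 to 15% and 0 to 11.1% of T cells. *Pros1* was found in 45.8 to 49.6% and 34.3 to 38.5%, against 10.8 to 20% and 4.17 to 18.5% of T cells. The shares of the ligands thus lay lower in each knockout mouse, as did the sums.

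In thinned knockout microglia *Axl* was found in cells with and without *Mertk* at like shares. Of the cells with a UMI of *Mertk* 35.4 to 40.5% held a UMI of *Axl*, and of those without one 34.3 to 43.4%. Without thinning these shares were 58.8 to 67.8% and 43.8 to 54.2%. In thinned control microglia they were 1.72 to 2.59% and 2.23 to 5.29%, lower with *Mertk* in each mouse. After thinning, both receptors were found in 25.5 to 29.8% of knockout and 1.41 to 2.12% of control microglia. *Axl* alone was found in 8.80 to 11.4% and 0.414 to 0.949%. Of the UMIs of the receptors together, without thinning, *Axl* made up 17.6 to 21.1% in knockout and 1.41 to 1.99% in control microglia, against 28.7 to 35.7% in control CAMs. This share compares UMIs of 3′ ends, not levels per length, and in CAMs it was 21.9 to 42.7% in knockout mice.

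**Figure D4:**
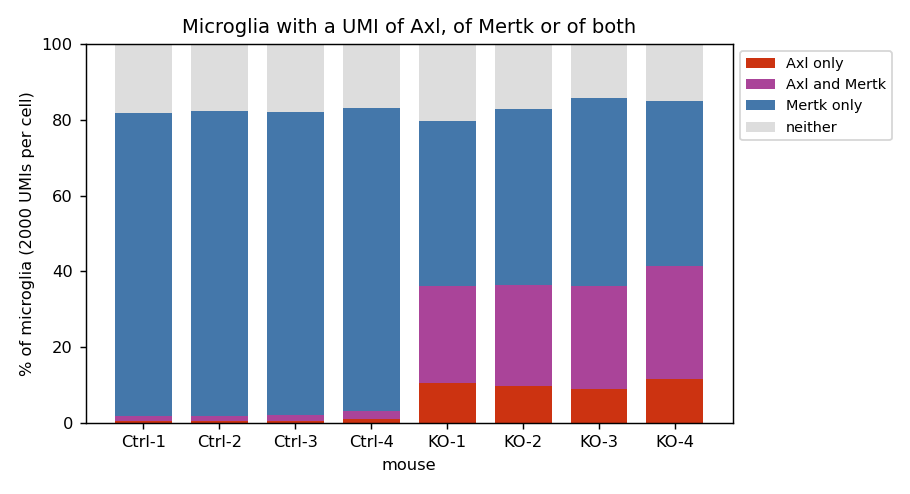
Share of microglia (%, each cell thinned to 2000 UMIs) with a UMI of *Axl* only, of both *Axl* and *Mertk*, of *Mertk* only or of neither, as stacked bars for each mouse. Cells with *Axl* are 36.1 to 41.3% in knockout and 1.86 to 3.07% in control mice, and most of them also hold *Mertk*.

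Microglia fell into 12 subclusters, formed without the members. Of these, 4, led by *Csmd3*, *Crybb1* or *Ecscr*, had under 10% knockout cells, and 6 had over 90%. *Axl* was 8.60 to 12.5 CPM, pooled over mice, in the first kind and 218 to 398 CPM in the second. The highest level was that of subcluster 10, led by *Cxcl10*, *Rsad2* and *Ifit3*, which interferons induce, where knockout mice had 403 to 428 CPM and control mice 98.2 to 296 CPM (3 mice). In the subcluster led by the chemokines *Ccl4* and *Ccl3*, knockout mice had 264 to 330 CPM and control mice 28.8 to 89.0 CPM. In the *Ms4a7*-led subcluster knockout mice had 232 to 307 CPM, and in those led by *Cst7* 205 to 243 CPM (subcluster 4) and 212 to 239 CPM (subcluster 9). *Axl* was at least 176 CPM in every knockout mouse with 10 or more cells in any of the subclusters of over 90% knockout cells.

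Few control cells lay in the subclusters of mostly knockout cells, but they held much of the *Axl* of control microglia. These 228 of the 7780 control microglia had 317 of the 638 *Axl* UMIs counted in control microglia, or 196 CPM (exact 95% Poisson interval 175 to 218, counting error only), against 8.45 CPM (7.44 to 9.56) in the 7396 control cells of the other kind. The 8236 knockout cells beside them had 252 CPM. In subcluster 1, led by *Tafa1*, control mice had 184 to 224 CPM of *Axl* and knockout mice 176 to 266 CPM, which overlap. The 228 control cells among the knockout cells had a median of 82.1% of their tag UMIs on the tag of their own mouse. In the 7396 control cells of the other kind it was 82.0%, and the lower quartiles were 68.2% and 75.3%. The *Arpc4* level of the 228 cells was 172 CPM (152 to 193), against 234 CPM (229 to 240) in the 7396. It was 138 CPM (134 to 141) in the knockout cells beside the 228. Median depth was 5512 UMIs in the 228 cells, against 3791 in the 7396. Whether some of the 228 cells hold RNA or tags of a second cell was not tested.

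Conversely, 163 knockout cells lay in the subclusters of mostly control cells, 121 of them from 1 mouse. They had 65.6 CPM of *Axl* (46.6 to 89.7) and *Arpc4* at 200 CPM (166 to 240). Their median share of tag UMIs on their own tag was 66.1%, against 84.7% in the 8236 knockout cells of the subclusters of over 90% knockout cells. The 163 cells were nearer to control microglia in *Axl* and in *Arpc4* than those 8236 cells. As for the control cells above, whether some of the 163 hold RNA or tags of a second cell was not tested.

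The mean of *Gas6* was lower in knockout than in control mice within each of 7 subclusters. These held at least 10 cells of 2 or more mice of each genotype, and the genotypes lay apart in 3 of them. In the *Ms4a7*-led subcluster control mouse 4 had 0 CPM, below the 31.4 to 46.2 CPM of the knockout mice. In subcluster 11 control mouse 3, with 54.0 CPM, lay below the 55.3 to 69.4 CPM of the knockout mice. Subclusters 0 and 3 rest on 2 knockout mice each, and knockout mouse 3 had 2 *Gas6* UMIs in either. In the subcluster led by *Ccl4*, control mice had 144 to 216 CPM and knockout mice 29.3 to 79.4 CPM of *Gas6*. In subcluster 10, led by *Cxcl10*, control mice had 98.2 to 100.1 CPM and knockout mice 24.8 to 50.5 CPM. The control values there rest on only 4, 6 and 7 *Gas6* UMIs, in 10, 11 and 16 cells of control mice 1, 2 and 4. In subcluster 1 control mice had 63.0 to 81.4 CPM and knockout mice 26.1 to 48.7 CPM. The mean of *Axl* was higher in knockout mice in all 7, with the genotypes apart in 5.

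*Mertk* and *Pros1* did not follow this pattern. Within the same 7 subclusters the mean of the knockout mice was the higher one in 5 and the lower one in 2 for each gene. *Pros1* was lower in knockout microglia as a whole. Some differences were small: *Pros1* averaged 201 CPM in both genotypes in subcluster 8, and 202 CPM in control and 212 CPM in knockout mice in subcluster 10. The genotypes lay apart in 3 of the 7 for *Mertk* and in 2 for *Pros1*. Subclusters 0 and 3 are among them for both genes and rest on 2 knockout mice each. Both genes varied between subclusters. Pooled over mice, *Mertk* ran from 239 CPM in subcluster 9, led by *Cst7*, *Apoe* and *Spp1*, 423 CPM in subcluster 7, led by *Crybb1*, and 450 CPM in the *Ms4a7*-led subcluster to 1426 CPM in the *Tafa1*-led and 1437 CPM in the *Csmd3*-led subcluster. *Pros1* was lowest in the *Ms4a7*-led subcluster, at 118 CPM, and highest in the *Csmd3*-led one, at 397 CPM. The median depth of these subclusters moved the same way, with 2610 UMIs in subcluster 9, 2317 in subcluster 7 and 2916 in the *Ms4a7*-led one, against 5493 in the *Tafa1*-led and 4982 in the *Csmd3*-led one, and its part in these levels was not tested. The *Xist*-led subcluster, nearly all from knockout mouse 1, had 222 CPM of *Axl*, 931 CPM of *Mertk*, 79.4 CPM of *Gas6* and 270 CPM of *Pros1*.

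**Figure D5:**
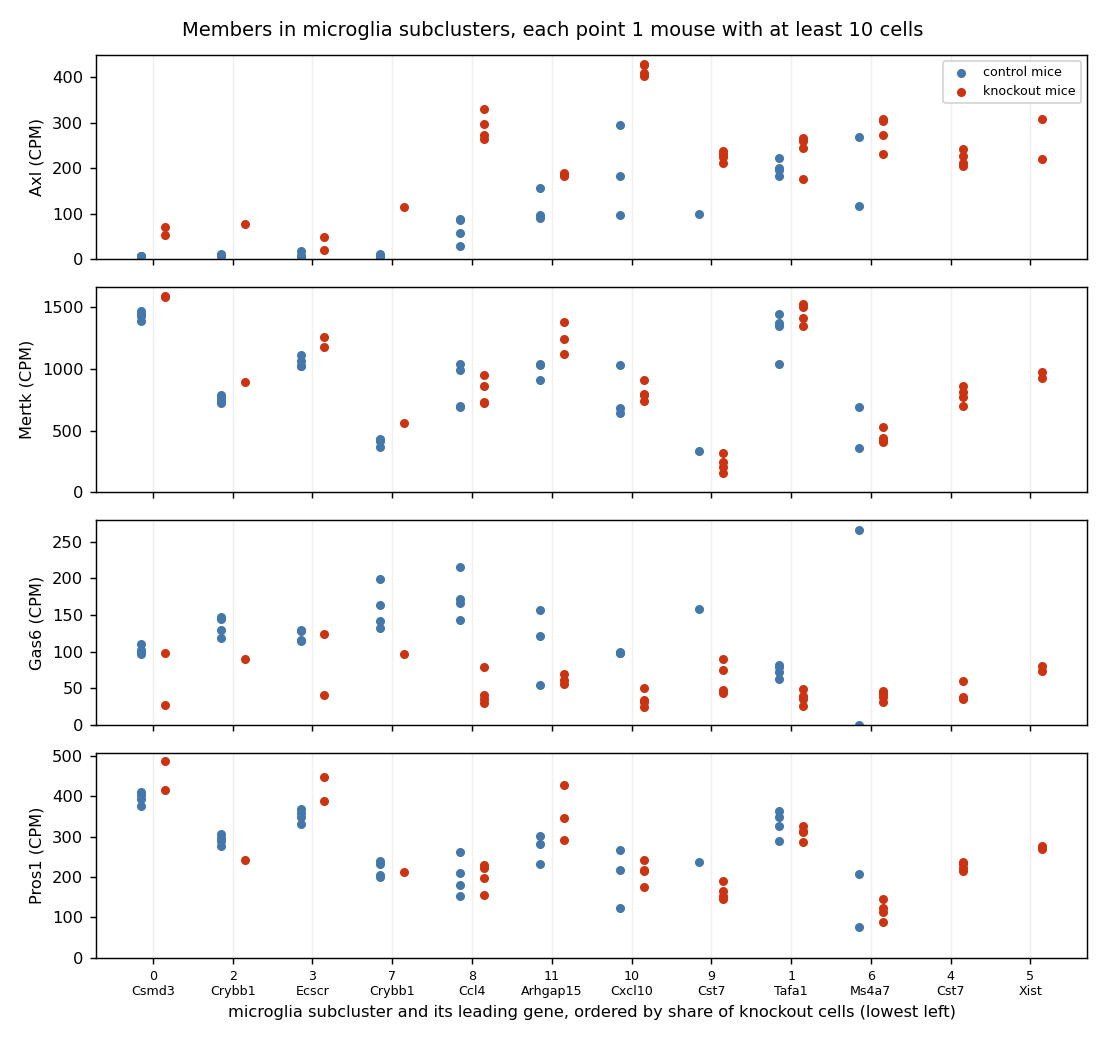
Levels (CPM by total, y axis) of *Axl*, *Mertk*, *Gas6* and *Pros1* in the 12 microglia subclusters (x axis, with the leading gene of each, ordered by the share of knockout cells), each point 1 mouse with at least 10 cells. *Axl* is under 20 CPM in control mice in the 4 leftmost subclusters. The mean of *Gas6* is lower in knockout mice within most subclusters, while *Mertk* and *Pros1* vary between subclusters in both genotypes.

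Other genes of the same uptake pathway were called in both directions in knockout microglia, as were 22.8% (higher) and 23.1% (lower) of all genes tested, and the counts that follow stand beside these shares and an all-gene median of −0.0066. Of 18 other phosphatidylserine receptors and bridging proteins, 11 were tested, 4 were higher, 3 lower and 4 not called, and the median log2 fold change was −0.071. The largest were the lipid receptors *Cd300lf* (4.55 to 65.3 CPM on average, log2 fold change 3.84, SE 0.59, edgeR adjusted p = 0.000335), *Cd36* (1.80 to 19.9 CPM, 3.53, SE 0.31) and *Cd300lb* (1.97 to 13.2 CPM, 2.75, SE 0.26). *Cd300lf* was 153 CPM in knockout mouse 1 and 32.9 to 40.6 CPM in the other knockout mice. *Mfge8*, a bridging protein that links phosphatidylserine to integrins, was low but higher, at 8.68 CPM ± 1.17 and 13.3 CPM ± 3.94 (log2 fold change 0.64, edgeR adjusted p = 0.0295), with overlapping genotypes. *Trem2*, a lipid receptor of microglia, was 2072 CPM ± 28.0 and 1973 CPM ± 426 (log2 fold change −0.071, edgeR adjusted p = 0.696). The 3 lower genes were *Itgb3*, *Lrp1* and *Stab1*.

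Of 16 genes of engulfment signalling, 15 were tested, 4 were higher and 7 lower, with a median of −0.16, beside 22.8% and 23.1% of all genes. *Elmo1*, the partner of Dock proteins in Rac activation, fell from 1777 CPM ± 48.0 to 1048 CPM ± 152 (log2 fold change −0.76, SE 0.094, edgeR adjusted p = 6.92e-05). *Src*, a kinase, rose from 17.97 CPM ± 2.54 to 26.4 CPM ± 1.76 (log2 fold change 0.56, edgeR adjusted p = 0.00128), and *Vav3*, an activator of Rac, from 0.962 to 5.58 CPM on average (2.41, SE 0.51). *Rac1* was among the 7 lower genes.

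Of 10 genes for phosphatidylserine exposure, ligand carboxylation and receptor shedding, 9 were tested, 3 were higher and 1 lower, with a median of −0.094, beside 22.8% and 23.1% of all genes. *Vkorc1*, which recycles the vitamin K needed to carboxylate both ligands, rose from 83.8 CPM ± 1.85 to 128 CPM ± 13.6 (log2 fold change 0.61, SE 0.073, edgeR adjusted p = 6.16e-05). *Adam17*, a protease that sheds cell surface receptors, was 166 CPM ± 3.93 and 194 CPM ± 16.6 (log2 fold change 0.23, edgeR adjusted p = 0.016), with overlapping genotypes. *Rhbdf2*, which helps ADAM17 to mature, rose from 8.84 to 14.3 CPM on average (0.65, edgeR adjusted p = 0.0126). *Ano6*, a scramblase, fell from 76.7 CPM ± 4.40 to 69.2 CPM ± 1.41 (log2 fold change −0.15, edgeR adjusted p = 0.0468).

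Of 12 genes of interferon and cytokine feedback, 10 were tested, 7 were higher, 0 lower and 3 not called, with a median of 0.65, beside 22.8% and 23.1% of all genes. *Irf7* (log2 fold change 2.77, SE 0.24, edgeR adjusted p = 5.16e-06) and *Stat2* (1.69, SE 0.16, edgeR adjusted p = 1.1e-05), transcription factors of the interferon response, were among the higher genes. *Irf7* was 9.09, 5.76, 5.50 and 6.59 CPM in the control mice and 60.7, 38.8, 29.2 and 47.6 CPM in the knockout mice, which do not overlap. In CAMs, 2 of the 7 tested genes of this list were called, both higher, while *Axl* was not called. Among them was *Irf7* (log2 fold change 1.58, SE 0.38, edgeR adjusted p = 0.0455). Its genotypes overlapped in CAMs, at 25.6 to 75.3 CPM in control and 71.7 to 264 CPM in knockout mice, with knockout mouse 1 highest. No gene of the other 4 lists was called in CAMs. Of all 3372 genes tested in CAMs, 0.919% were called.

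Of 10 nuclear receptors and lipid efflux targets, all 10 were tested, 3 were higher and 5 lower, with a median of −0.13, beside 22.8% and 23.1% of all genes. *Pparg* rose from 0.808 to 5.93 CPM on average (log2 fold change 2.77, SE 0.32, edgeR adjusted p = 4.77e-05), *Ppard* from 58.5 to 92.8 CPM (0.67, SE 0.087, edgeR adjusted p = 0.000103). *Rxra*, the partner of these receptors, fell from 16.2 to 9.10 CPM (−0.81, SE 0.12, edgeR adjusted p = 0.000251).

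The genes most like each member were sought over 14 points, the 7 classes in each genotype, by Pearson's correlation of log2(CPM + 10) averaged over mice, among 12101 genes. All points share 1 library and differ in depth, so these values are descriptions. For *Axl* they were *Cxcl16*, a chemokine (r = 0.973), *Creb5*, a transcription factor (r = 0.956), and *Gm4951* (r = 0.917). For *Mertk* they were *Rps6kc1* (r = 0.969), *Zfyve1* (r = 0.961) and *Ski*, a corepressor of SMAD proteins (r = 0.961). For *Gas6* they were *Stab1*, a scavenger receptor (r = 0.973), *Rac3*, a small GTPase (r = 0.952), and *Tmod1*, which caps actin filaments (r = 0.939). For *Pros1* they were *Bmp2k* (r = 0.976), *Zfp74* (r = 0.974) and *Slc29a3*, a nucleoside transporter (r = 0.973). *Stab1* is also 1 of the 3 lower genes of the first list, with a log2 fold change of −1.10 in microglia (SE 0.16, edgeR adjusted p = 0.000185).

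Beside these results, the summed levels of marker lists of other cells in microglia moved with genotype for several lists. The 7 CAM markers summed to 26.7 to 34.9 CPM in control and 20.8 to 73.2 CPM in knockout microglia, against 5888 to 7125 CPM in control CAMs, and the 6 T cell markers to 1.34 to 2.86 and 1.54 to 2.32 CPM. The 6 granulocyte markers summed to 388 to 407 and 422 to 605 CPM, with *Ly6g* at 0 in control microglia, against 350337 CPM in the granulocytes of 1 control mouse. The 5 B cell markers summed to 225 to 240 and 71.7 to 138 CPM, and 9 genes of other brain cells to 28.4 to 38.2 and 46.5 to 48.3 CPM, with *Cldn5* at 0. The 6 dendritic cell markers summed to 5.25 to 7.74 and 15.8 to 20.7 CPM, with *Ccr7* at 0, the 5 natural killer cell markers to 0.334 to 1.43 and 2.52 to 4.29 CPM, with *Eomes* at 0, and the 6 proliferation markers to 3.51 to 5.49 and 5.61 to 10.2 CPM. The lists of dendritic, natural killer, proliferating and other brain cells and of granulocytes were higher in each knockout mouse, and that of B cells lower. The 6 monocyte markers (7.96 to 11.9 and 6.36 to 8.13 CPM) and 4 red cell markers (3.08 to 5.68 and 3.76 to 4.67 CPM) overlapped. The part of these cells in the values of the members was not tested.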

How the data were processed

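The raw UMI counts deposited by the authors were used, in 8 tables, each of the CD45+ brain cells of a single mouse (4 control, 4 *Arpc4*Δ*Cx3cr1*), and in the table of all barcodes of the pool. Alignment to mm10 and counting were done by the authors with Cell Ranger (7.1.0 in the file headers, 6.1.2 in the submitters' processing notes) and assigned cells to mice by 12 possible tags. The counts are not normalized and not corrected for free RNA, since all 19864 cells have the same total in both kinds of table, and 0 barcodes are shared between mice. Groups came from the tag labels.

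Cells with under 200 genes or over 20% mitochondrial UMIs were left out (19863 remained). Cells were log-normalized and clustered with Seurat 5.3.0 (10000 variable genes without the members and *Arpc4*, 20 components, resolution 0.8). Clusters were named from fixed marker lists, with limits set after the clusters were seen. Clusters with a low UMI count (997 control and 511 knockout cells) stayed unnamed, and 6 cells with over 1% hemoglobin UMIs were dropped. No doublet caller was run, and a limit of 3 times the median UMIs of the mouse is an alternative. UMIs were summed per mouse and class (at least 10 cells) and tested with edgeR 4.0.16 in R 4.3.3 (filterByExpr, TMM, quasi-likelihood, Benjamini-Hochberg adjusted p under 0.05), which was tested on simulated data. DESeq2 and limma gave alternatives. Levels by class and subcluster are CPM by the total alone. Intervals of log2 values are SE times the 97.5% quantile of the t distribution on the residual degrees of freedom. The cutoffs of 10% and 90% knockout cells for subclusters were set after they were seen.

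The members, pathway lists and tests were chosen with earlier results of these data known. Named genes are the members, *Arpc4*, up to 3 genes per pathway list with the largest called fold and genotypes apart in microglia, *Trem2*, *Mfge8* and *Adam17*, and the 3 genes most like each member (1 gene that the rule names is not reported here), and *Xist*, *Itgb3*, *Lrp1*, *Stab1* and *Rac1* were named after their values were seen. Mice are the replicates, and the labels say nothing of litters. Gene UMIs per mouse ran from 5251527 to 12878691, and counting intervals cover counting error only. Positions came from GENCODE vM21, which 32158 of the 32285 gene identifiers matched. Staining, bulk sequencing and the authors' ambient RNA correction were not used here.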

Additional observations from a re-analysis of the deposited data

Results flagged for a closer look

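Among 4 mice of a group, a value was singled out where its gap to the nearest mouse exceeded Dixon's 95% critical share of the group's range, which chance alone gives in about 1 in 20 groups. Of 29 groups examined, 4 held such a value. *Mertk* in CAMs of control mouse 2 was 312 CPM, below 379 to 385 CPM in the other control mice. The share of microglia with a UMI of *Axl*, in cells thinned to 2000 UMIs, was 3.07% in control mouse 4, above 1.86 to 1.99% in the other control mice, and 41.3% in knockout mouse 4, above 36.1 to 36.4% in the other knockout mice. The share with a UMI of *Tyro3* was 0.0454% in knockout mouse 2, from 1 cell, and 0 in the other mice.

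The genotype effects of *Axl* and *Gas6* differed between CAMs and microglia by the test of the difference itself. The effect in CAMs minus that in microglia was −3.71 for *Axl* and 1.12 for *Gas6* on the log2 scale.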

How the results depend on the processing

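In microglia, *Axl*, *Gas6* and *Pros1* kept their direction and call in all 19 alternatives, with log2 fold changes of 3.65 to 4.22, −1.48 to −1.05 and −0.46 to −0.29, and the count of called genes lay between 5179 and 6508. *Mertk* changed sign, uncalled, at resolution 0.4 (0.022), and leaving out single mice gave −0.11 to 0.015. In CAMs, leaving out each mouse gave 7 to 52 called genes (8, 7 and 12 without control mouse 1, 3 or 4, and 51 and 52 without knockout mouse 2 or 4), and log2 fold changes of −0.11 to 0.37 for *Axl*, −0.060 to 0.26 for *Mertk*, −0.12 to 0.17 for *Gas6* and −0.46 to 0.15 for *Pros1*. Called genes numbered 108 without a filter on low counts (*Gas6* −0.048). At resolution 0.4, with the wider CAM class described above, 824 genes were called, *Axl* was called at 0.65 and *Gas6* was −2.27. Without cells over 3 times the median UMIs of their mouse *Pros1* was 0.15.

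The mouse numbers pair nothing between genotypes: no same-numbered pair had deviations that correlated by over 0.1. With the number as a replicate block, 12 genes were called in CAMs, and no call of a member changed. For the difference of genotype effects, the mouse as a block gave 1064 called genes. With each mouse left out, this comparison gave 304 to 571 called genes (367, 355, 304 and 333 without control mice 1 to 4), *Mertk* −0.077 to 0.30, *Pros1* −0.17 to 0.47 and *Gas6* 0.94 to 1.52. For control CAMs over microglia, no call changed, with 2583 to 3082 called genes.

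Shares of microglia with a UMI move with depth. Thinned to 1000 UMIs and unthinned, control means were 1.19 and 5.07% for *Axl*, 60.2 and 90.2% for *Mertk*, 11.3 and 35.2% for *Gas6* and 28.2 and 68.1% for *Pros1*, and knockout means 21.1 and 60.3%, 52.6 and 84.8%, 4.66 and 17.4%, and 20.2 and 59.0%. In barcodes of at most 50 and of 10 to 100 UMIs, *Axl* was 145 and 101 CPM and *Mertk* 609 and 453 CPM, and *Gas6* 96.3 CPM in the latter. The subtraction of free RNA by brain tissue genes was not run, since microglia held those genes at 77.8 to 132% of their level in empty droplets. *S100a8* and *S100a9* took their place after the data were seen. The CAM sums limit what could be seen there.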
